A study of Mus musculus with 6 samples.

Results

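A set of 9 genes used as markers of fetal-like or repairing intestinal epithelium were followed in RNA sequencing libraries of sorted small-intestinal epithelium with and without c-Maf. They are Ly6a, Ly6e, Clu, Anxa1, Anxa3, Areg, Ereg, Cyr61 and Ctgf, taken by symbol, and all 9 had a row among the 23390 genes of the deposited count table. The set was chosen by known biology together with the log2 fold changes of the genotype comparison in these same libraries, among them the high Ly6a of the knockout. Its genotype differences are therefore given here as a description and carry no test. Of the 9, 7 passed the filter on low counts that left 13740 genes for the fit, and Anxa1 and Ctgf did not.

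The cells were viable CD45- EpCAM+ cells of C57BL/6 mice, that is, cells without the leukocyte marker and with the epithelial one. Of the 6 libraries, 3 came from Maf.flox mice, which carry the floxed Maf gene and no Cre and served as controls. The other 3 came from Vil.Cre Maf.flox mice, in which Cre under the villin promoter deletes Maf throughout the gut epithelium, and are called knockouts here, so all 6 share the floxed allele. The age of the mice is not given in the labels. A group with Cre alone is not part of the design, so an effect of Cre and one of Maf loss cannot be told apart. The labels do not say whether each library is a separate animal, and the spread between libraries may be partly technical.

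When the gut lining is injured, surviving epithelial cells can leave their mature or stem cell programs for a transient state that resembles fetal gut. Ly6a, also called Sca-1, is the surface protein most used to sort such cells. Clusterin marks rare cells that rebuild lost stem cells, and annexins A1 and A3 appear in the same cells. The Hippo pathway co-activators YAP and TAZ, bound to TEAD transcription factors, drive much of this program. Cyr61 and Ctgf, matricellular proteins of the CCN family, are their classical targets. Amphiregulin and epiregulin, encoded by Areg and Ereg, are ligands of the EGF receptor that YAP can induce. Ly6a and its relative Ly6e can also be induced by interferon.

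Promoter sequences from RefSeq (GRCm38.p6), 250 bases before to 50 bases after the start site, were matched for 3 of the 9 genes and are shown because TEAD binding near the start site is the textbook link between YAP and these markers. Each is written 5′ to 3′ along the gene's own strand, and capitals mark matches to the motifs searched.
Cyr61 (chr3:145649936-145650235, minus strand): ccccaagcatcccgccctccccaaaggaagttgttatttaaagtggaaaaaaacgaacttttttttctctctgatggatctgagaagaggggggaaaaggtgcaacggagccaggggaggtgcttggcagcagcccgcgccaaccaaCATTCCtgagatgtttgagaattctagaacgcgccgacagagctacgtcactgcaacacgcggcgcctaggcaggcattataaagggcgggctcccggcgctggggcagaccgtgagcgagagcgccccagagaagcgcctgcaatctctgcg
Areg (chr5:91139349-91139648, plus strand): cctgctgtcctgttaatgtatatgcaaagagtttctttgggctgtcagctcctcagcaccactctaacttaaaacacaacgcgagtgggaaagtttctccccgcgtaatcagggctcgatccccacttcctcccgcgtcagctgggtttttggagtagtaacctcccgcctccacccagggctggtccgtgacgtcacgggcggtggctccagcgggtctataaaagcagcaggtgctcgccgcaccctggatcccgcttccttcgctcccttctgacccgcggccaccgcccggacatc
Anxa1 (chr19:20390622-20390921, minus strand): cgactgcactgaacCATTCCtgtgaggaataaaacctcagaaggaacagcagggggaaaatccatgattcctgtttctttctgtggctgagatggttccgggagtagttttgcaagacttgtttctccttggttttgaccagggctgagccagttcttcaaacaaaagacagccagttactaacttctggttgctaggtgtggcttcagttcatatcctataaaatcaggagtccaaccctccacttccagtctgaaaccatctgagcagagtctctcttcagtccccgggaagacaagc
Both strands were searched for the TEAD motif GGAATG, the AP-1 motif TGANTCA, the core Maf site TGCTGAC, the interferon-stimulated response element and the STAT motif TTCNNNGAA. Matches of different motifs were allowed to overlap. Cyr61 and Anxa1 each held 1 TEAD match, on the reverse strand, 103 and 236 bases before the RefSeq start site. The Anxa1 window lies wholly inside the gene as placed by GENCODE (20373428 to 20390944, minus strand). Its match is therefore not upstream of the GENCODE start. The Areg window held no match to any of the 5 motifs. Of 32851 promoter windows of this length, 14.7% held the TEAD motif, 7.81% the AP-1 motif, 4.67% the core Maf site, 3.44% the interferon element and 8.3% the STAT motif.

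Library totals ran from 17464355 to 24802525 counts. Maf itself had 3893 to 9398 counts in the control libraries and 1 to 16 in the Vil.Cre Maf.flox libraries. Epithelial markers were abundant, with the 8 tested (Krt8, Krt19 and Vil1 the highest) summing to 17590 to 20680 CPM (counts relative to the library's TMM-scaled size) in controls and 16740 to 21950 in Vil.Cre Maf.flox. Maf.flox replicate 3 stood apart from the other controls. Counts differed between it and replicates 1 and 2 by 133.1 and 61.65 chi-square units per gene, against 37.82 between replicates 1 and 2. Xist and Y-linked counts read 1 control and 2 Vil.Cre Maf.flox libraries as male and the others as female, so sex was not balanced.

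The 9 markers did not shift together. Ly6a was about 9-fold higher in Vil.Cre Maf.flox and Ly6e 1.74-fold higher, while the ligands Areg and Ereg were about 3-fold lower. Cyr61 was lower by a smaller margin, Clu and Anxa3 stayed within the control range or close to it, and Anxa1 and Ctgf were barely detected in either genotype. Of the 7 tested, 2 had a log2 fold change above 0 and 5 below, with a median of -0.17 against -0.01 over all tested genes. By the quasi-likelihood test of edgeR, adjusted over all genes, 1 of the 7 (Ly6a) was called higher and 0 lower, where 0.546% of all tested genes were called, 0.189% higher and 0.357% lower. At an unadjusted p under 0.05 there were 5 of 7, against 16.4% of all genes. Since the set was chosen with this contrast known, nothing is read from these counts.

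**Figure D1:**
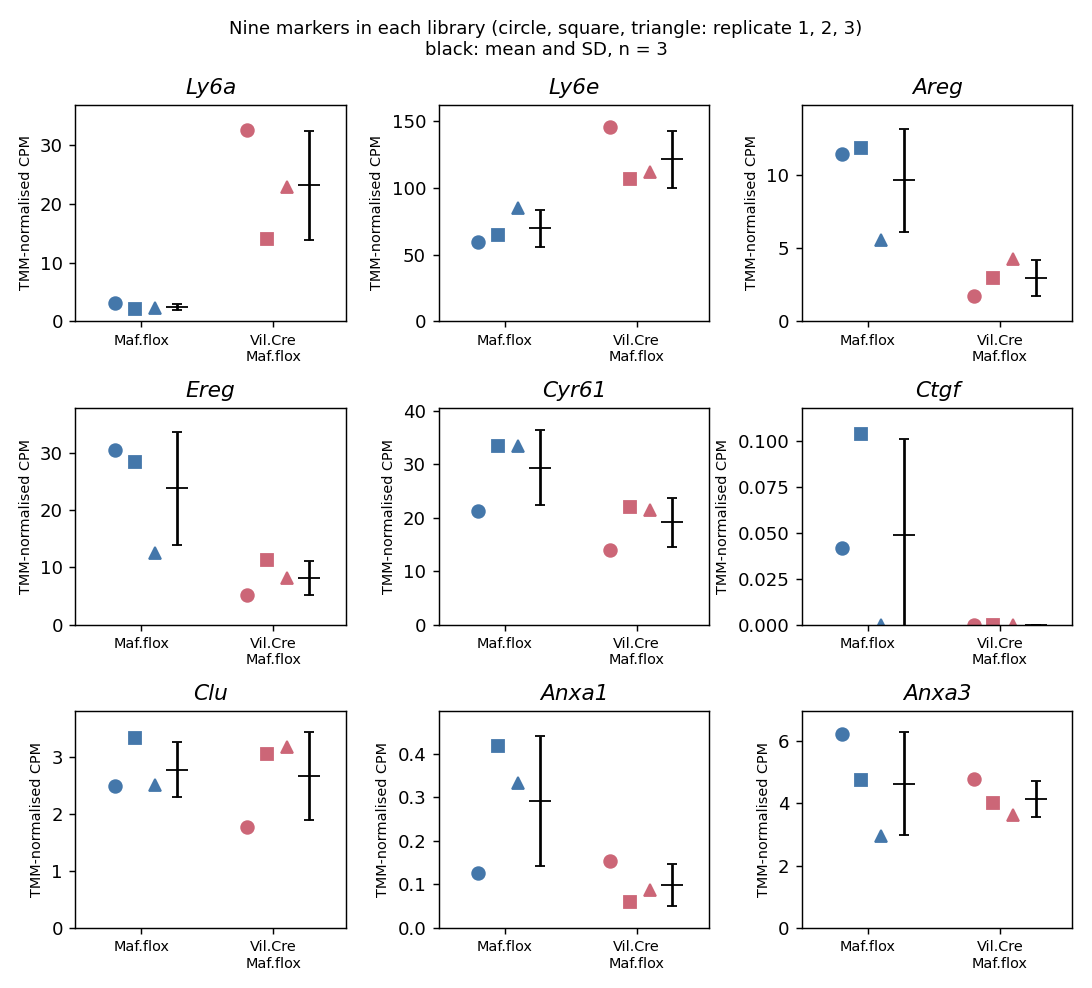
TMM-normalised CPM of each of the 9 markers (vertical axes, linear and starting at 0) in 3 Maf.flox libraries (blue) and 3 Vil.Cre Maf.flox libraries (red), with circle, square and triangle for replicates 1, 2 and 3 and the black mark for the mean and SD. Ly6a and Ly6e lie higher and Areg and Ereg lower in every red library than in any blue one, and the remaining 5 panels overlap.

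Ly6a, a GPI-anchored surface protein, stood at 3.07, 2.03 and 2.32 CPM in the control libraries and at 32.7, 13.98 and 22.9 CPM in the knockout libraries, here and below in the order of replicates 1, 2 and 3. The lowest knockout library was thus several times above the highest control, although the knockout libraries varied more among themselves. Group means were 2.48 ± 0.536 and 23.2 ± 9.35 CPM (SD, n = 3 each), a log2 fold change of 3.22 (SE 0.333), or 9.31-fold. The single male control and the 2 male knockouts gave a log2 ratio of 2.93, and the 2 female controls and the single female knockout gave 3.39. Ly6a no longer passed with sex as a term (log2 fold change 3.16), without Maf.flox replicate 2 (3.11) or without Vil.Cre Maf.flox replicate 3 (3.23), where the adjusted p was 0.0529, 0.0646 and 0.0563 against a range of 3.53e-22 to 0.0646 over all fits.

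The Ly6a gene lies on GRCm38 chromosome 15, 74994877 to 74998031, minus strand (ENSMUSG00000075602), and belongs to a cluster of similar genes. Of its 1297 distinct transcript stretches of 50 bases in GENCODE M21, 19% also occur in a transcript of Ly6c1, Ly6c2, Ly6i or I830127L07Rik, so counting could have moved some reads between these genes. Ly6c1, which marks endothelium and some leukocytes, was at 0 in 5 of 6 libraries and at 0.0856 CPM in the other. Levels of Ly6c2, Ly6i and I830127L07Rik are not given here, and their share of such reads was not tested. Ly6e lies 34972 bases from Ly6a and shared no such stretch with any other gene.

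Ly6e, a relative of Ly6a best known as an interferon-induced modulator of virus entry, stood at 59.2, 64.7 and 85.0 CPM in the controls and at 145.9, 106.7 and 111.6 CPM in the knockouts. The groups did not overlap, as was the case in this direction for 10.1% of all tested genes. Means were 69.7 ± 13.6 and 121.4 ± 21.4 CPM (SD, n = 3 each), with a log2 fold change of 0.80 (SE 0.169). Vil.Cre Maf.flox replicate 1 was the highest library for both Ly6a and Ly6e. Within males the log2 ratio of Ly6e was 1.09 and within females 0.58.

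Areg stood at 11.5, 11.9 and 5.60 CPM in the controls and at 1.72, 2.94 and 4.24 CPM in the knockouts. Ereg stood at 30.5, 28.4 and 12.5 CPM in the controls and at 5.12, 11.2 and 8.09 CPM in the knockouts. For both ligands every knockout library was below every control, as was the case for 10.5% of all tested genes, and Maf.flox replicate 3 came closest to the knockouts. Log2 fold changes were -1.69 (SE 0.388) for Areg and -1.55 (SE 0.396) for Ereg, which is 3.23-fold and 2.93-fold lower. The ratio for Areg was -2.30 in males and -1.04 in females on the log2 scale, and for Ereg -1.90 and -1.34. The lowest knockout library of both ligands, replicate 1, was the one with the highest Ly6a.

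Areg (GRCm38 chromosome 5, 91139599 to 91148432) and Ereg (91074622 to 91093646) are neighbours on the plus strand, 45953 bases apart. Epgn, another EGF receptor ligand gene beside Ereg, had at most 0.16 CPM. Exons of Ereg overlap those of the antisense transcript Gm19610 over 3.42% of their length, and whether counting used strand is not given in the sources used here. Gm19610 had at most 0.569 CPM in any library.

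The calls for Ly6e, Areg and Ereg depended on the fit. None of the 3 passed in the main fit of edgeR. All 3 passed with DESeq2, with adjusted p of 0.000633, 0.000351 and 0.000408, and all 3 passed without Maf.flox replicate 3, with 0.0117, 0.0136 and 0.0108 by edgeR. Both of these fits called many more genes of all kinds. DESeq2 called 266 of the 14587 genes to which it gave an adjusted p higher (1.82%) and 476 lower (3.26%). Without Maf.flox replicate 3 edgeR called 124 of 14029 genes higher (0.884%) and 577 lower (4.11%), against 75 in both directions with it, and limma-voom called 34 (0.247%). Over all fits the adjusted p ran from 0.000633 to 0.307 for Ly6e, from 0.000351 to 0.335 for Areg and from 0.000408 to 0.412 for Ereg. Their directions were the same in all 14 alternative fits. Because Ly6e, Areg and Ereg were chosen with this contrast known, these adjusted p are no test of them and only compare the fits.

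**Figure D2:**
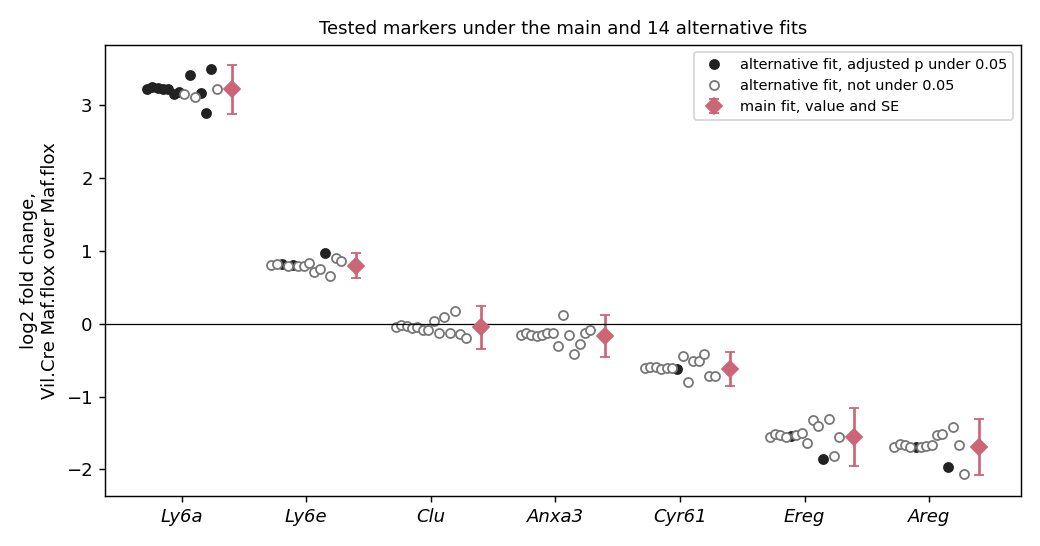
Log2 fold change of Vil.Cre Maf.flox over Maf.flox (vertical axis) for the 7 tested markers, with the main edgeR value and its SE as a red diamond and each of 14 alternative fits as a circle, filled where the adjusted p over all genes was under 0.05. Ly6a stays between 2.90 and 3.50 and Areg and Ereg stay at or below -1.30 in every fit, while Clu and Anxa3 cross 0.

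Cyr61, encoded on GRCm38 chromosome 3 (145646976 to 145649981), stood at 21.3, 33.4 and 33.5 CPM in the controls and at 13.9, 22.1 and 21.5 CPM in the knockouts. The lowest control lay inside the knockout range, so the groups overlapped. The log2 fold change was -0.62 (SE 0.231), and it ran from -0.80 to -0.42 over the fits. Ctgf, the other classical YAP target, had 1, 2 and 0 counts in the controls and 0 in each knockout library, where 0 counts allow up to 0.128 to 0.176 CPM by the 3-count limit. Counting error alone is covered by that limit. No difference in Ctgf could be seen at this depth, and 23.2% of its exon length is shared with the antisense transcript Gm15270.

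Clu, which encodes the secreted chaperone clusterin, stood at 2.48, 3.33 and 2.51 CPM in the controls and at 1.78, 3.05 and 3.17 CPM in the knockouts. Its log2 fold change of -0.05 (SE 0.289) was smaller than its error. Anxa3, a calcium-dependent membrane-binding protein, stood at 6.22, 4.74 and 2.94 CPM in the controls and at 4.77, 3.99 and 3.64 CPM in the knockouts, with a log2 fold change of -0.17 (SE 0.286). All 3 knockout values of Anxa3 lay inside the control range. Anxa3 shares 3.07% of its exon length with Gm42603 on the same strand, and 1.79% of its transcript stretches of 50 bases. Anxa1, known for limiting inflammation, had 3, 8 and 7 counts in the controls and 3, 1 and 2 in the knockouts. With no filter its log2 fold change was -1.45, with an adjusted p of 0.542 by edgeR.

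Levels can be compared between genes only per gene length, for which the deposited FPKM were used. In controls the order was Ly6e at 18.3 ± 3.49 FPKM, Cyr61 at 14.5 ± 3.36, Areg at 7.91 ± 2.89, Ereg at 5.74 ± 2.39 and Ly6a at 2.05 ± 0.464 (SD, n = 3). They were followed by Anxa3 at 1.27 ± 0.459, Clu at 0.803 ± 0.133, Anxa1 at 0.111 ± 0.0561 and Ctgf at 0.0169 ± 0.0181 FPKM (SD, n = 3). Neighbours whose ranges overlapped in controls were Ly6e and Cyr61, Areg and Ereg, Ly6a and Anxa3, and Anxa3 and Clu. In Vil.Cre Maf.flox Ly6a was second, at 19.3 ± 7.80 FPKM (SD, n = 3), below Ly6e at 32.2 ± 5.68 and above Cyr61 at 9.52 ± 2.27. Areg at 2.45 ± 1.04, Ereg at 1.98 ± 0.734, Anxa3 at 1.14 ± 0.158 and Clu at 0.777 ± 0.226 FPKM came next (SD, n = 3). There the ranges of Areg and Ereg and of Ereg and Anxa3 overlapped. TMM-normalised counts per kilobase gave the same order in both groups.

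**Figure D3:**
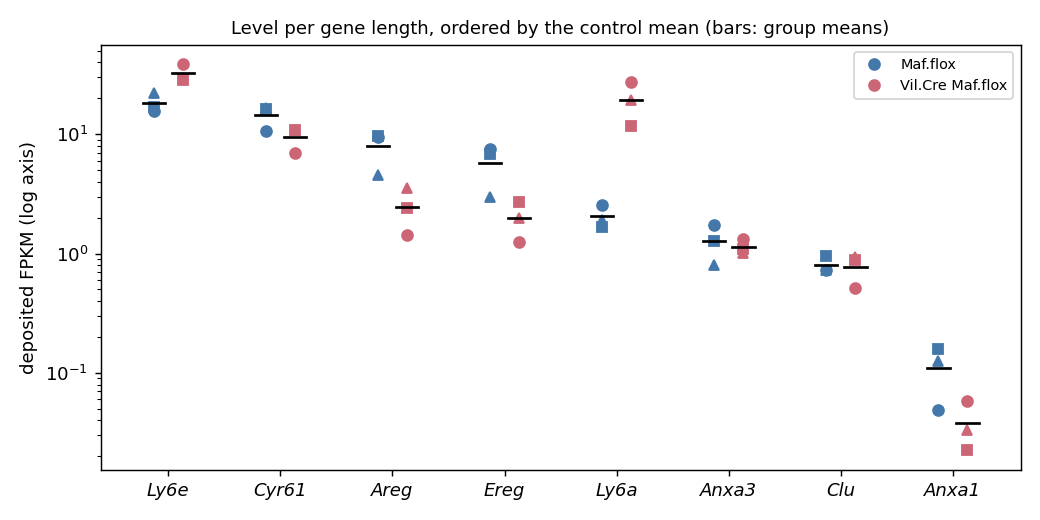
Deposited FPKM (vertical log axis) of 8 markers, ordered by the control mean, in Maf.flox (blue) and Vil.Cre Maf.flox (red) libraries, with symbols for replicates 1 to 3 as circle, square and triangle and black bars for group means. Ctgf, at 0 in 4 of 6 libraries, cannot be drawn on a log axis; Ly6a moves from 2.05 to 19.3 FPKM while Clu stays near 0.8 in both groups.

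Other genes linked to the same epithelial state lay closer to 0 than Ly6a. Of 14 tested markers of fetal or repairing epithelium outside the set, 4 had a log2 fold change above 0 and 10 below, with a median of -0.16. By edgeR, DESeq2 and limma-voom 0 of them were called, and 3 had an unadjusted p under 0.05, against 16.4% of all tested genes. The matrix protein gene Ecm1 was at -1.18 (SE 0.382), the interleukin-1 receptor antagonist Il1rn at -1.02 (SE 0.351), the calcium-binding S100a6 at -0.64 (SE 0.434) and annexin gene Anxa5 at 0.36 (SE 0.131).

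Of 12 tested YAP/TAZ-TEAD target genes other than Cyr61 and Ctgf, 9 lay below 0 and 3 above, with a median of -0.65, against -0.01 over all tested genes. By edgeR and limma-voom 0 were called, and 8 of the 12 had an unadjusted p under 0.05 by edgeR, against 16.4% of all tested genes. DESeq2 called 4 lower (Amotl2, Crim1, Gadd45a and Nt5e), against 3.26% of the 14587 genes to which it gave an adjusted p. Amotl2, an angiomotin that holds YAP outside the nucleus and is itself a YAP target, stood at 20.5, 21.1 and 18.6 CPM in the controls and at 10.9, 13.4 and 11.6 CPM in the knockouts. Amotl2 was at -0.75 on the log2 scale (SE 0.133, adjusted p = 0.0546 by edgeR). Its groups did not overlap, as was the case in this direction for 4 of the 12 and for 10.5% of all tested genes. The stress-induced Gadd45a was at -0.80 (SE 0.175), the transmembrane protein gene Crim1 at -0.55 (SE 0.144) and Nt5e, which encodes the ecto-5'-nucleotidase CD73, at -3.42 (SE 0.980). Nt5e varied widely in the controls, at 3.32, 5.83 and 0.38 CPM. Without Maf.flox replicate 3 edgeR called 6 of these targets lower and 0 higher, in a fit that called 577 of 14029 genes lower (4.11%). The list's median level, relative to each gene's mean over libraries, was 0.45, 0.43 and -0.11 on the log2 scale in the controls. In the knockouts it was -0.56, -0.20 and -0.26, so Maf.flox replicate 3 was the control closest to the knockouts.

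Genes of the Hippo pathway itself and the DNA-binding partners of YAP had values on both sides of 0. Of 19 tested, 6 lay above 0 and 13 below, with a median of -0.08 that ran from -0.12 to 0.01 over the fits. EdgeR and limma-voom called 0, and 2 had an unadjusted p under 0.05, against 16.4% of all tested genes. DESeq2 called Wwc1, which encodes the Hippo scaffold KIBRA and is also a YAP target, lower. Wwc1 was at -0.42 (SE 0.108), the upstream tumour suppressor Nf2 at 0.31 (SE 0.0904), Tead1 at 0.30 (SE 0.140) and the kinase gene Lats1 at -0.19 (SE 0.113). Wwtr1, which encodes TAZ, had at most 0.26 CPM in any library.

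The ErbB pathway, in which Areg and Ereg act, was examined through 12 other tested genes, of which 3 lay above 0 and 9 below (median -0.16). By edgeR, DESeq2 and limma-voom 0 were called, and 2 of the 12 had an unadjusted p under 0.05, against 16.4% of all tested genes. Errfi1, a feedback inhibitor of the EGF receptor, was at -0.64 (SE 0.199). Among the ligands Egf was at -0.62 (SE 0.274), Hbegf at -0.55 (SE 0.238) and Btc at -0.24 (SE 0.183). Hbegf, which encodes a heparin-binding ligand, stood at 65.5, 80.4 and 63.0 CPM in the controls and at 29.9, 56.8 and 55.6 CPM in the knockouts. Its groups did not overlap, as was the case in this direction for 2 of the 12 and for 10.5% of all tested genes.

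**Figure D4:**
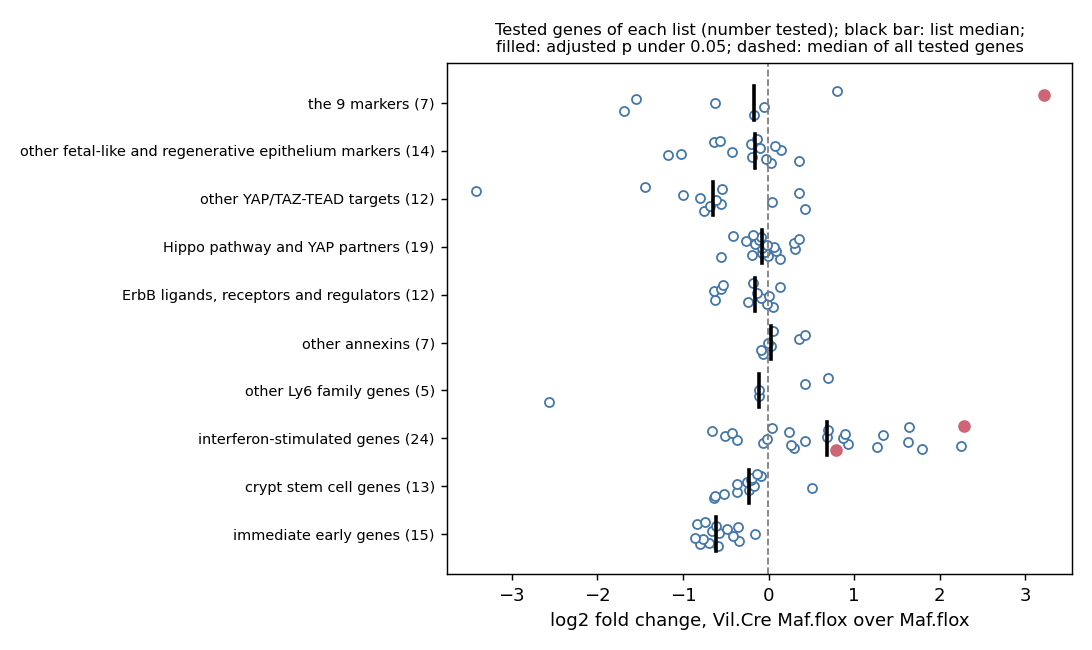
Log2 fold change of Vil.Cre Maf.flox over Maf.flox (horizontal axis) for each tested gene of 10 gene lists, with the number tested in brackets, the list median as a black bar, the median of all tested genes as a dashed line and filled circles for genes called over all genes by edgeR. The median of the YAP/TAZ-TEAD targets is -0.65 and that of the interferon-stimulated genes 0.69, while the 9 markers spread from -1.69 to 3.22.

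Relatives of the markers by sequence gave medians whose sign was not fixed. Of 7 other tested annexins, 4 lay above 0 and 3 below (median 0.03, from -0.06 to 0.10 over the fits). By edgeR, DESeq2 and limma-voom 0 were called, and 1 had an unadjusted p under 0.05, against 16.4% of all tested genes. Besides Anxa5, Anxa6 was at 0.43 (SE 0.367), Anxa11 at -0.06 (SE 0.106) and Anxa13 at -0.09 (SE 0.161). Of 5 other tested genes of the Ly6 family, 2 lay above 0 and 3 below (median -0.11, from -0.24 to 0.30). By edgeR and limma-voom 0 were called, and 2 had an unadjusted p under 0.05, against 16.4% of all tested genes. DESeq2 called Lypd8, an epithelial protein that keeps flagellated bacteria from the gut wall, higher and Ly6g6f lower. Lypd8 was at 0.70 (SE 0.149), Ly6g6f at -2.57 (SE 0.910), Lypd6b at 0.43 (SE 0.534) and Lypd6 at -0.11 (SE 0.358). The CCN genes Wisp1 and Wisp3 had too few counts to be tested.

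Interferon-stimulated genes are set beside Ly6a and Ly6e because interferon can induce both. Of 24 tested, 18 lay above 0 and 6 below, with a median of 0.69. The 6 below 0 ran from -0.66 to -0.02. By edgeR 2 were called higher and 0 lower, against 0.189% and 0.357% of all tested genes. DESeq2 called 10 higher, against 1.82% of the 14587 genes to which it gave an adjusted p. By limma-voom 1 was called, against 0.247%, and 13 had an unadjusted p under 0.05 by edgeR, against 16.4%. Every knockout library was above every control for 10 of the 24, against 10.1% of all tested genes, and below for 0. With Maf.flox replicate 3 left out, edgeR called 7 higher and 2 lower. That fit called 124 of 14029 genes higher (0.884%) and 577 lower (4.11%). Zbp1, which senses left-handed nucleic acids, was at 2.28 (SE 0.208) and Bst2, which tethers virus particles, at 0.79 (SE 0.126), both called by edgeR. The immunity-related GTPase Igtp was at 1.63 (SE 0.289) and the deISGylase Usp18 at 1.64 (SE 0.312), neither called. The median level of the list, relative to each gene's mean over libraries, was -0.16, -0.30 and -0.52 on the log2 scale in the controls and 0.18, 0.10 and 0.63 in the knockouts. The highest library for this list's median was knockout replicate 3, and Ly6a and Ly6e were highest in knockout replicate 1. Single genes of the list differed in this. Zbp1 was highest in knockout replicate 1, and Bst2, Igtp and Usp18 were highest in knockout replicate 3. The part of interferon in the levels of Ly6a and Ly6e was not tested.

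Immediate early genes, a list added after the values were known, had log2 fold changes below 0. All 15 tested lay below 0, with a median of -0.61. By edgeR and limma-voom 0 were called, and 10 had an unadjusted p under 0.05 by edgeR, against 16.4% of all tested genes. DESeq2 called 7 lower, against 3.26% of the 14587 genes to which it gave an adjusted p. Because the list was added with the values known, these counts are no test of it. Fos was at -0.77 (SE 0.198), Junb at -0.66 (SE 0.168), Btg2 at -0.80 (SE 0.198) and Maff at -0.61 (SE 0.147). The list's level was 0.21, 0.49 and 0.20 in the controls and -0.65, -0.10 and -0.13 in the knockouts, lowest in the library with the lowest Areg and Ereg. Its part in the levels of the ligands was not tested.

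Several of the 9 markers are made by other cells of the gut wall, which bulk libraries cannot separate, and more positive cells cannot be told apart from more RNA per cell. Summed leukocyte markers, 6 of 18 of them tested, were 25.4 to 35.2 CPM in controls and 33.2 to 42.9 CPM in Vil.Cre Maf.flox, most of it from Lcp1, Itgam and Igha. Of the 6 tested, 4 lay above 0 and 2 below, with a median of 0.97. The B cell gene Ms4a1 was at 2.49 (SE 0.509) and the integrin gene Itgam at 0.89 (SE 0.191), and the groups did not overlap for either. Ms4a1 had at most 0.13 CPM in controls and 0.66 CPM in knockouts. Ptprc, which encodes CD45, was at -1.86 (SE 0.830), with at most 2.29 CPM in controls and 0.59 CPM in knockouts. Summed stromal markers, 3 of 11 tested, were 11.5 to 13.01 and 13.95 to 16.5 CPM, most of it from Pdgfrb and Vim, and these sums did not overlap between genotypes. The third tested gene, Tagln of smooth muscle, was at 1.11 (SE 0.436), while the collagen gene Col1a1 had at most 0.12 CPM. Endothelial markers, 4 of 9 tested, summed to 8.95 to 10.9 and 9.37 to 12.3 CPM. Of the 4 tested, 2 lay above 0 and 2 below, with a median of 0.03. Lyve1, the most abundant, was at 0.33 (SE 0.232), Esam at -0.10 (SE 0.476) and Tie1 at -0.73 (SE 0.510). Pecam1 had 0.59 CPM or less. M cell markers, 8 of 9 tested, summed to 141.8 to 164.2 and 157.8 to 203.8 CPM, led by Tnfrsf11a, Ccl9 and Marcksl1. Of the 8 tested, 2 lay above 0 and 6 below, with a median of -0.16. Ccl9 was at 0.94 (SE 0.206) on the log2 scale. By edgeR and limma-voom 0 genes of these 4 lists were called. There were 2, 1, 0 and 1 genes with an unadjusted p under 0.05, against 16.4% of all tested genes. DESeq2 called Itgam and Ccl9 higher. The part of such cells in the Ly6a level was not tested.

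The genes most like Ly6a across the 6 libraries, by Pearson r of log2 CPM among tested genes with a mean of at least 5 CPM, were Prss27 (r = 0.994), Mmp28 (0.993), Rtn4ip1 (0.988), Bcs1l (0.986) and Atp2a2 (0.984). The genotype difference shapes each of these values, and the 6 points share their libraries. Prss27, a serine protease gene, stood at 2.19, 1.72 and 2.28 CPM in the controls and at 17.4, 7.34 and 11.6 CPM in the knockouts, in the same order among the knockouts as Ly6a. Mmp28, a secreted metalloprotease gene, stood at 8.70, 7.08 and 8.02 CPM and at 18.0, 14.2 and 14.9 CPM, again highest in knockout replicate 1.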

How the data were processed

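RNA of 6 libraries (3 Maf.flox, 3 Vil.Cre Maf.flox) was measured. The submitters' processing notes name the tools featureCounts 1.5.0-p3, HISAT2 2.0.5 and DESeq2 and the build GRCm38 (mm10). The authors deposited raw counts per gene, as whole numbers, and the FPKM deposited by the authors are per gene length and library size. FPKM served only to compare levels between genes. Start and end of all 9 markers matched GENCODE M21. The 9 members and the gene lists were chosen with earlier results of these data known.

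Counts of all genes were fitted with edgeR 4.0.16 in R 4.3.3 (filterByExpr with least count 10, TMM, robust quasi-likelihood test, genotype only, Benjamini-Hochberg over 13740 genes, threshold 0.05). CPM are TMM-normalised, and log2 CPM used a prior count of 2. Genes named are the 9 markers and, from each list, those called and the 4 with the smallest p; for marker lists, the 3 most abundant. Ptprc, Ms4a1, Col1a1, Pecam1 and single low-count genes (Ly6c1, Epgn, Wwtr1, Wisp1, Wisp3) were picked after their values were seen. Alternatives were RLE and upper quartile scaling, 2 other filters, DESeq2 1.42.0, voom (limma 3.58.1), a replicate block, a sex term and each library left out. Values within each sex and the immediate early and enterocyte lists were chosen after seeing the data. On simulated counts over 13740 genes for this comparison edgeR recovered 72.7% of 2-fold and 95.9% of 4-fold changes, and 9.84% of its calls were false. A level of 1 CPM equals 17.0 to 23.8 counts in a library. Protein sequences were not used here.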

Additional observations from a re-analysis of the deposited data

How the results depend on the processing

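Over all genes 75 were called (26 higher, 49 lower), against 365 with no filter, 742 with DESeq2, 34 with limma-voom, 38 with the sex term and 440 with a replicate block, and 8 to 701 with 1 library left out. RLE, upper quartile scaling and the stricter filter gave 78, 103 and 58. Of the 7 tested markers 1 was called in the main fit. With no filter 2 of all 9 were called, where 365 of 23108 genes were. DESeq2 called 4, where it called 742 genes, and gave Anxa1 and Ctgf no adjusted p. Of the 7, the sex term gave 0 and the replicate block 2 (Ly6a and Cyr61, the latter with an adjusted p of 0.0242 by edgeR). With 1 library left out 0 to 4 of the 7 were called. The log2 fold change of Ly6a was 3.16 with the sex term, where its call was lost, and 2.90 to 3.50 with 1 library left out. The deviations of libraries with number 1, 2 and 3 correlated across genotypes at 0.09, -0.03 and 0.27, and number 2 did not correlate best with itself, so the replicate number was treated as a name and not a pairing. Clu turned to 0.04 with the sex term, 0.10 without Maf.flox replicate 2 and 0.18 without Vil.Cre Maf.flox replicate 1 (range -0.20 to 0.18 with 1 library left out). Anxa3 turned to 0.12 without Maf.flox replicate 1 (range -0.41 to 0.12); the cause was not tested. Ly6a, Ly6e, Areg, Ereg and Cyr61 kept their direction in all 14 alternatives. The median of the YAP/TAZ-TEAD targets ran from -0.78 to -0.52 and that of the interferon-stimulated genes from 0.41 to 0.80 over these fits. Depth limits what can be seen for Anxa1 and Ctgf, which are under 1 CPM in every library.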

Other observations

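Genes of homeostatic crypt stem cells can fall when epithelium enters the regenerative state, and are listed here for that reason. Their median log2 fold change was -0.23, from -0.38 to -0.10 over the fits, with 12 of 13 tested members below 0. By edgeR and limma-voom 0 were called, and 3 had an unadjusted p under 0.05, against 16.4% of all tested genes. DESeq2 called Axin2 lower and Prom1 higher, where it called 3.26% of genes lower and 1.82% higher. Prom1, which encodes the surface protein CD133, was at 0.51 (SE 0.130), the Wnt target Axin2 at -0.62 (SE 0.161), Cdk6 at -0.52 (SE 0.206) and Rnf43, a Wnt receptor ubiquitin ligase, at -0.37 (SE 0.167). The list's level was -0.11, 0.13 and 0.39 in the controls (in replicate order) and -0.17, -0.40 and 0.17 in the knockouts. Replicate 3 was thus the highest library of each genotype, and the genotypes overlapped. A link between this list and a regenerative state was not tested.

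Maf.flox replicate 3, the control nearest to the knockouts in Areg and Ereg, was also low in mature enterocyte genes, a list added after the values were known. That list's level was 0.67 and 0.97 in the other controls, -0.21 in replicate 3 and -0.41, -0.23 and -0.89 in the knockouts. Of its 10 genes 1, Anpep, was called lower, against 0.357% of all tested genes, and the median log2 fold change was -1.26. Its part in the levels of the ligands was not tested.

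Of the genes near Ly6a and Ly6e, 2010109I03Rik, 58030 bases from Ly6e, was at -2.06 on the log2 scale with an adjusted p of 0.484 by edgeR, and it varied from 1.66 to 39.9 CPM among the controls. Mthfd2l, 53254 bases from Ereg, was at 0.41 with an adjusted p of 0.34 by edgeR. Neither neighbour was called.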
